A study of Mus musculus with 12 samples.

Results

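The genes examined were 6 receptors of the SLAM family, Slamf7, Slamf8, Slamf9, Cd48, Cd84 and Ly9, together with Cd72, 7 of the 18194 genes measured. They were selected on the lower signals of Slamf7 and Cd72 in luteolin + LPS-treated than in LPS-treated microglia, so the comparison of those groups is given as values, without a test. The members had 8 probe sets, of which Cd84 had 2. The cells were BV-2, an immortalized mouse microglial line, kept for 24 h with luteolin + LPS, with LPS, with luteolin or untreated as the control. Luteolin was given at 50 µM and LPS at 50 ng/ml, and 3 Affymetrix mouse genome arrays were made per condition. Luteolin is a plant flavonoid and was dissolved in DMSO; whether the untreated cells received DMSO is not given in the sources used here. LPS, lipopolysaccharide of the outer bacterial membrane, is sensed by Toll-like receptor 4 and drives microglia into an inflammatory state.

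SLAM family receptors are surface proteins of blood cells with immunoglobulin-like domains. Most of them bind a copy of themselves on a neighbouring cell, and their cytoplasmic tails recruit adaptors of the SAP family, kinases and phosphatases that turn the contact into activation or restraint. Slamf8, Slamf9 and Cd48 lack the tyrosine switch motifs of the other receptors, and Cd48 is held in the membrane by a lipid anchor. Cd72 is a C-type lectin-like receptor whose tail carries inhibitory ITIM motifs, known mainly as a brake on B cells and found on macrophages too.

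The promoters of Slamf7, Slamf8, Slamf9 and Cd72, the 4 members with the largest log2 differences between luteolin + LPS and LPS in the contrast on which the set was chosen, are shown so that the start regions of these genes can be compared. They run from 250 bases before to 50 after the start of each gene, 5′ to 3′ on the strand of the gene, from RefSeq on GRCm38.p6. Slamf7 lies at chr1:171648950-171649249 on the minus strand, Slamf8 at chr1:172590519-172590818 on the minus strand, Slamf9 at chr1:172475110-172475409 on the plus strand and Cd72 at chr4:43454577-43454876 on the minus strand. Capitals mark matches on either strand to the motifs described next.
Slamf7: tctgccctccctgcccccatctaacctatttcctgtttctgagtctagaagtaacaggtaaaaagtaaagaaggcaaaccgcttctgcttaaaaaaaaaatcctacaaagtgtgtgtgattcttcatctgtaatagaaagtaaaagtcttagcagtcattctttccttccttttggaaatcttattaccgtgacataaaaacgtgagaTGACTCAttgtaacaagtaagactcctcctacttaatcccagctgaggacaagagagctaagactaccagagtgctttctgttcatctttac
Slamf8: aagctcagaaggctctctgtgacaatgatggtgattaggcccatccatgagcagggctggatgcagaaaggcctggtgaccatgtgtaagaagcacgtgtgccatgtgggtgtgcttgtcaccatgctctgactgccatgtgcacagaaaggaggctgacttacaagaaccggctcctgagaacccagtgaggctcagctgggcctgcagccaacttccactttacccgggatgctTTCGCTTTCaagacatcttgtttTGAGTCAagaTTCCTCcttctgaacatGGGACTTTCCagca
Slamf9: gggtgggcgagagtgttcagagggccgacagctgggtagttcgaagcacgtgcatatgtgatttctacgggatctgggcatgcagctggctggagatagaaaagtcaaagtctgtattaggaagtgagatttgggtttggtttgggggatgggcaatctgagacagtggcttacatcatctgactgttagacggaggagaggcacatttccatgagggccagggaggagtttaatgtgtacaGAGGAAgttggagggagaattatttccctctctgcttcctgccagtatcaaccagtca
Cd72: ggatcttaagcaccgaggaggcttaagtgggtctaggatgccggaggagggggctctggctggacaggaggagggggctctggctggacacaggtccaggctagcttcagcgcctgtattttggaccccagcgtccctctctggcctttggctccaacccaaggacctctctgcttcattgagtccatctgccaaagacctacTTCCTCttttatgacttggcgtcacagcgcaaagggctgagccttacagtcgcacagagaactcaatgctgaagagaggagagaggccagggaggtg

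The motifs searched on both strands were AP-1 (TGANTCA), PU.1 (GAGGAA), GAS (TTCNNNGAA), an ISRE-like motif (GAAANNGAA), C/EBP (TTGCNNAA) and the NFkB consensus. AP-1 letters stood at bases -42 to -36 from the start of Slamf7, and at bases 9 to 15 of Slamf8, where the start is base 0. The Slamf8 window also held PU.1, ISRE-like and NFkB letters, while Slamf9 held 1 PU.1 match at bases -8 to -3 and Cd72 1 at bases -47 to -42. Of the 6 members with a promoter entry, AP-1 letters stood in 3 (Slamf7, Slamf8, Cd84), PU.1 in 4 (Slamf8, Slamf9, Cd84, Cd72), the ISRE-like motif in 2 (Slamf8, Cd84) and NFkB in 1 (Slamf8). GAS and C/EBP letters were found in none of these 6 windows, and no motif match overlapped another. Among all 32817 promoters in the table, 7.81% held AP-1, 28.3% PU.1, 8.29% GAS, 8.55% the ISRE-like motif, 10.8% C/EBP and 4.5% NFkB letters. A match describes letters only, and binding was not measured.

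**Figure D1:**
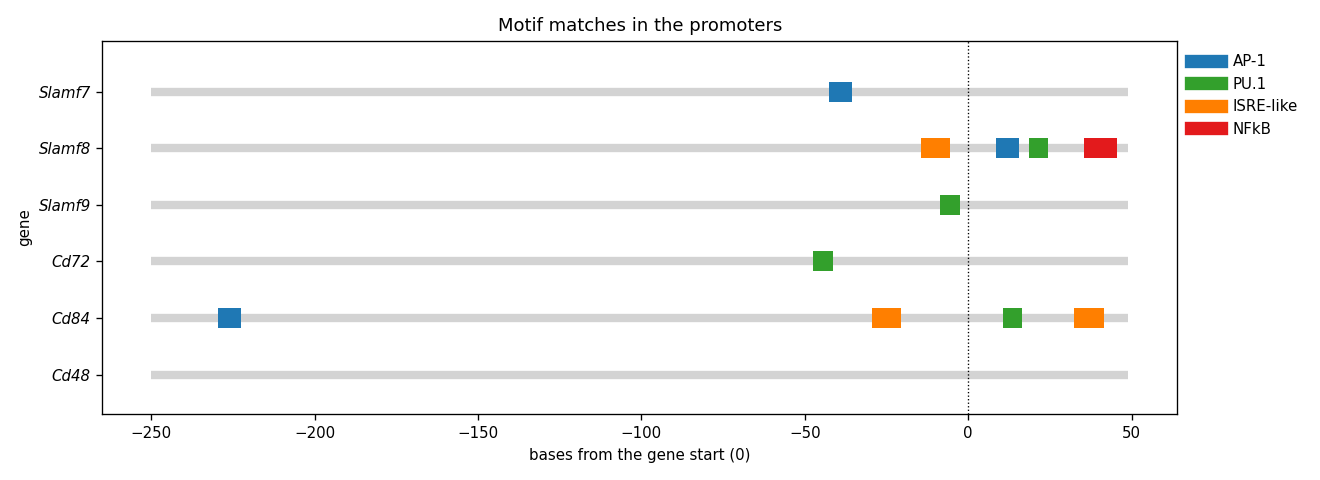
Motif matches in the promoters of 6 members, with bases from the gene start on the horizontal axis (0 is the start) and 1 grey bar per promoter. Slamf8 held matches to 4 motifs within bases -14 to 45, whereas Cd48 held none.

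The deposited values are signals on a linear scale into which the authors had condensed each probe set by RMA, and the median signal of an array was between 52.2 and 56.4. A gene was tested when its geometric mean signal was 50 or more in at least 1 condition, the minimum the study used, and 12071 genes passed. All 13 markers of microglia and macrophages reached that level in at least 1 condition, among them Aif1, Itgam and Csf1r. P2ry12, Tmem119 and Cx3cr1 lay near it, with mean signals of 23.1 to 73.8, 58.5 to 77.4 and 43.7 to 54.6. Reaching 50 does not by itself set cell types apart. The T cell marker Cd4 had mean signals of 106.0 to 124.9. The neuron marker Rbfox3 had 192.9 to 214.0 and Syt1 46.6 to 51.7, while Snap25 and Tubb3 of neurons were under 50. The astrocyte markers Gfap and Slc1a3 had 60.1 to 70.4 and 68 to 75.4, and the oligodendrocyte marker Mbp 84.2 to 90.6. Aqp4 of astrocytes and Mog of oligodendrocytes were under 50. The summed signal of the 13 markers per array was 45845 to 64249 with luteolin + LPS, 52679 to 63181 with LPS, 53828 to 62079 with luteolin and 56404 to 60365 in the control. Of these 13 markers, 1 rose with LPS over the control and 0 fell, where 1.96% of all genes tested rose and 2.22% fell. The 1 was Adgre1, an adhesion receptor of macrophages (log2 fold change 1.29, SE 0.28, adjusted p = 0.031 in limma). Trem2, a lipid receptor of microglia, was at -0.86 (adjusted p = 0.0657) and its signalling partner Tyrobp at -0.53 (adjusted p = 0.0648). The summed signal hides differences of single markers: Aif1 had a mean signal of 59.8 with luteolin + LPS, against 223.7 with LPS, a log2 difference of -1.90. The part of these markers in the results was not tested. The defining receptor genes of B cells, Cd79a, Cd79b and Ms4a1, were under 50 in all conditions, while another B cell marker, Pax5, had mean signals of 50 to 53.7. Also under 50 were Ncr1, Klrk1 and Eomes of NK cells and Cd3g and Cd3d of T cells. The summed signals of the 4 B cell markers were 148.8 to 160.8 with luteolin + LPS, 143.4 to 165.9 with LPS, 140.3 to 155.3 with luteolin and 145.5 to 148.3 in the control. Those of the 5 T cell markers, of which Cd3e, Cd8a and Cd4 reached 50, were 332.2 to 392.9 with luteolin + LPS, 306.2 to 349.1 with LPS, 287.8 to 357.9 with luteolin and 294.1 to 323.5 in the control. Those of the 3 NK cell markers were 77.2 to 88.1 with luteolin + LPS, 72.3 to 85.5 with LPS, 74.1 to 85.4 with luteolin and 69.3 to 74.3 in the control. On bulk RNA, fewer cells that express a gene and less of its RNA per cell cannot be told apart.

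Of the 7 members, 6 reached a signal of 50 in 1 or more conditions and were tested. Slamf8 passed only through its LPS arrays and Slamf7 only through the LPS and luteolin + LPS arrays, so counts over the members that passed carry no support of their own. Cd48 did not pass. The conditions were compared with a test in 3 ways: LPS versus control, luteolin versus control and luteolin + LPS versus luteolin. The LPS arrays and the luteolin + LPS arrays also stood in the contrast on which the members were chosen, and only luteolin versus control is free of them.

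Slamf7, known as CRACC or CS1, is a self-binding receptor of NK cells, plasma cells and macrophages. Its probe set had signals of 196.2, 31.8 and 50.8 in replicates 1, 2 and 3 with luteolin + LPS and of 1333, 270.9 and 353.7 with LPS. With luteolin alone the signals were 78.2, 34.5 and 38.9, against 57.2, 45.6 and 40.2 in the control. All LPS arrays were above all arrays of the other conditions, the highest array under each of the 4 conditions was replicate 1, and the luteolin and control arrays overlapped. With LPS, Slamf7 rose by a log2 fold change of 3.42 (SE 0.69, n = 3 per group) over the control in the limma fit, a fold of 10.68, with an adjusted p of 0.0211. Without control replicate 1, 2 or 3, or without LPS replicate 1 or 3, the adjusted p was 0.057, 0.071, 0.0811, 0.051 and 0.0522. The log2 fold change without LPS replicate 1 was 2.71. These fits had no replicate block. With the replicate number as a block and all arrays kept, the SE was 0.36 and the adjusted p 0.000895 in limma. By replicate number the difference was 4.54, 2.57 and 3.14, and it was 3.27 with signals under 50 set to 50.

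Slamf8, called BLAME, is a receptor of macrophages and dendritic cells, induced by interferon gamma and known in mice to restrain reactive oxygen production by phagocytes. Its probe set gave 17.8, 14.1 and 36.8 with luteolin + LPS and 66.5, 87.9 and 71.6 with LPS. The signals were 10.7, 19.3 and 13.6 with luteolin and 15.7, 15 and 11 in the control. Only the LPS arrays lay above 50, and they did not overlap with any other condition. Slamf8 rose with LPS, with a fitted log2 fold change of 2.45 (SE 0.33, n = 3 per group, adjusted p = 0.00262 in limma). Since all 3 control arrays were under 50, the log2 fold change was at least 0.58 when signals under 50 were set to 50.

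Cd72 binds the semaphorin Sema4d and signals through the phosphatase Ptpn6. Its probe set gave 341.4, 269.3 and 673.8 with luteolin + LPS and 1505, 938.7 and 1418 with LPS. The luteolin arrays were at 280.5, 329.3 and 339.2, against 366.3, 284.0 and 392.7 in the control. Each LPS array was above every other array, and replicate 3 was the highest of the luteolin + LPS arrays. With LPS, Cd72 rose by a log2 fold change of 1.87 (SE 0.30, n = 3 per group) over the control, a fold of 3.66, with an adjusted p of 0.0074 in limma, and by 2.04, 1.72 and 1.85 within the replicate numbers. This call held in every alternative, with adjusted p between 0.000723 and 0.0383.

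Slamf9 is a receptor of macrophages and plasmacytoid dendritic cells. Its probe set gave 197.2, 150.6 and 404.5 with luteolin + LPS, 528.7, 447.1 and 502.7 with LPS, 265.2, 376.5 and 310.5 with luteolin and 287.0, 322.6 and 289.3 in the control. All LPS arrays were above all control arrays, and replicates 1 and 2 with luteolin + LPS were the lowest of the 12 arrays. The log2 fold change with LPS was 0.72 (SE 0.29, n = 3 per group) over the control and did not pass the test (adjusted p = 0.194 in limma). It passed with only the groups compared in the fit (adjusted p = 0.0379) and without luteolin + LPS replicate 3 (0.0343).

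Cd84, or Slamf5, is a self-binding receptor of macrophages, platelets and lymphocytes. Its probe set gave 1607, 751.4 and 1115 with luteolin + LPS, 1693, 1519 and 1361 with LPS, 2511, 1695 and 1966 with luteolin and 1794, 1945 and 1824 in the control. Here the LPS-treated arrays were the lower ones: all LPS arrays were below all control arrays, and all luteolin + LPS arrays were below all luteolin arrays. The log2 fold change of LPS over control was -0.29 (SE 0.24, adjusted p = 0.533) and that of luteolin + LPS over luteolin was -0.88 (SE 0.24, adjusted p = 0.115; n = 3 per group in limma). With the replicate number as a block, the decrease of Cd84 with luteolin + LPS against luteolin passed the test (adjusted p = 0.0361), and it also passed with array weights (0.0285) and without luteolin + LPS replicate 1 (0.0225, with a log2 fold change of -1.15). The second probe set of Cd84 was at 21.7 to 28.8 on all arrays and carried no level above the minimum.

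Ly9, or Slamf3, is a self-binding receptor of lymphocytes and macrophages. Its probe set gave 69.8, 45.7 and 72.3 with luteolin + LPS, 61.5, 61.7 and 77.6 with LPS, 50.1, 46.3 and 61.7 with luteolin and 42.2, 47.7 and 50.9 in the control. These signals lay close to the minimum of 50 throughout, and the LPS arrays were all above the control arrays. The log2 fold change with LPS was 0.51 (SE 0.19, n = 3 per group, adjusted p = 0.16 in limma), and with the replicate block the rise passed the test (adjusted p = 0.0483). With the replicate number as a random block, which uses an estimated correlation, it did not pass (adjusted p = 0.0594). Cd48, or Slamf2, is a ligand of Cd2 and Cd244. Its probe set gave 13, 13.9 and 20.6 with luteolin + LPS, 13, 17.5 and 17.6 with LPS, 13.2, 16.1 and 15.2 with luteolin and 15.3, 14.9 and 15.4 in the control, so all 12 arrays were under 50 and no change was measurable.

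**Figure D2:**
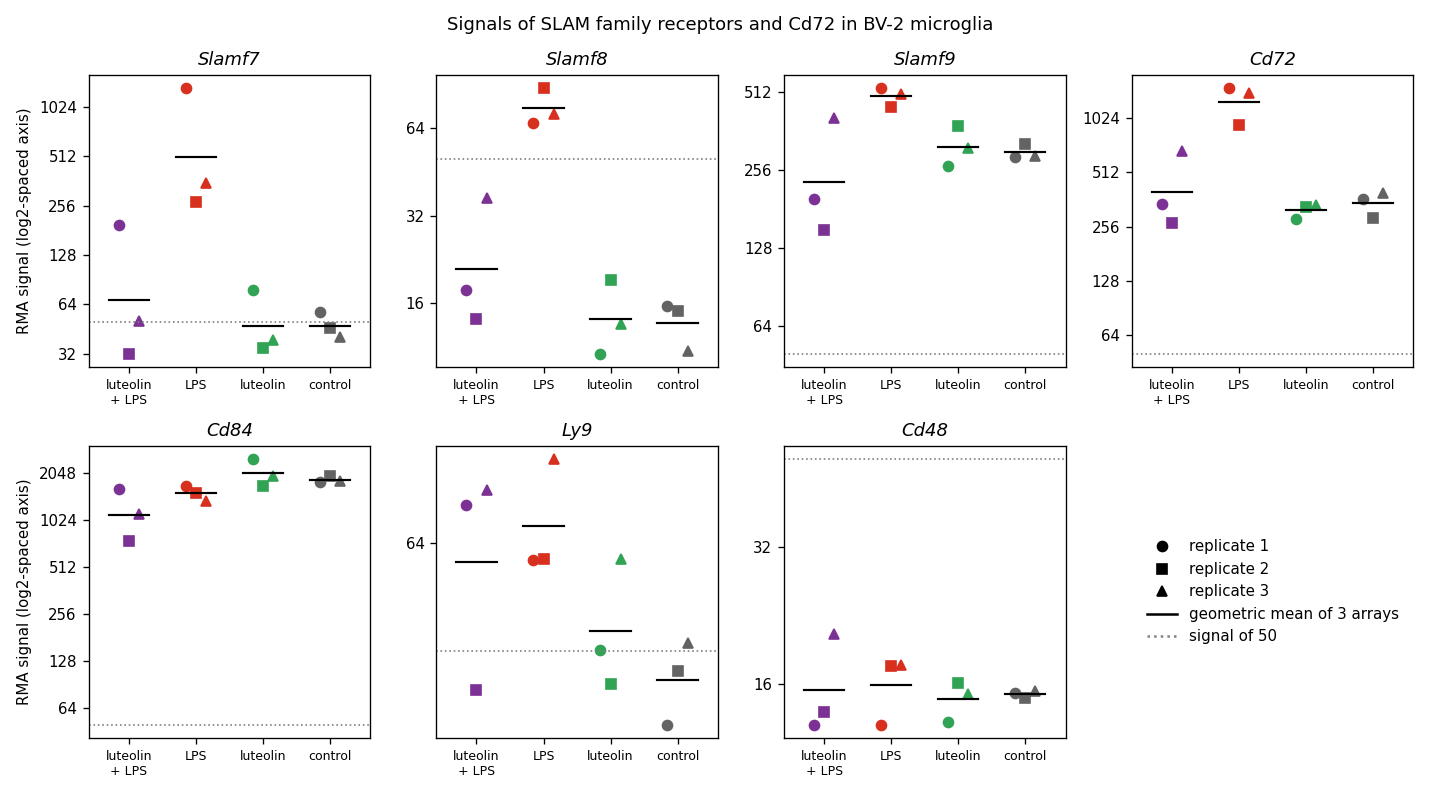
RMA signals of the 7 members on a log2-spaced axis, by condition and replicate, with a bar at the geometric mean of 3 arrays and a dotted line at 50; each panel has its own axis range. The LPS arrays of Slamf7, Slamf8 and Cd72 lie above all other arrays, and Cd48 stays under 50.

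Of the 7 members, Slamf7, Slamf8 and Cd72 passed the test as higher with LPS than in the control and 0 as lower. Among all genes tested, 1.96% passed as higher and 2.22% as lower in this comparison. With the replicate block 4 of 7 were higher, Ly9 being the fourth, where 4.3% of the genes tested were higher, and with the random replicate block 3 of 7, without Ly9. The median log2 difference of LPS over control was 0.72 for the 7 members and -0.038 for all genes tested. The LPS arrays also stood in the contrast that chose the members, and Slamf8 passed the minimum only through them. Nothing is therefore read from these counts and medians about the set. By mean signal, Slamf7, Slamf8 and Cd72 were highest with LPS and second with luteolin + LPS, and the luteolin and control arrays overlapped with each other. The luteolin + LPS arrays of all 3 genes also overlapped with the luteolin and the control arrays.

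Luteolin alone did not move any member past the test. Their log2 fold changes of luteolin over control ran from -0.13 for Cd72 (SE 0.30, adjusted p = 0.959, n = 3 per group in limma) to 0.16 for Ly9 (SE 0.19, adjusted p = 0.883). Slamf7 was at 0.00 (SE 0.69, adjusted p = 1). This SE pools the spread within all 4 conditions, and it was 0.31 with only the luteolin and control arrays in the fit. With most of these signals under 50, the size of any change in resting cells stays uncertain. Slamf8 was at 0.04, Slamf9 at 0.07, Cd84 at 0.13 and Cd48 at -0.04, and the luteolin and control arrays of all 7 members overlapped. The sign of Slamf7, Slamf8, Slamf9 and Cd84 in this comparison turned when single arrays were left out. Among all 12071 genes limma called 0 (0% higher and 0% lower), while 1097 genes, or 9.09%, had an unadjusted p under 0.05, and 34 genes were called with the replicate block. No member was called in this comparison under any alternative.

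In the presence of luteolin, LPS did not move a member past the test in the fit without a block either. With the replicate block Cd84 passed (adjusted p = 0.0361 in limma). The log2 fold change of luteolin + LPS over luteolin was 0.53 for Slamf7 (SE 0.69, adjusted p = 0.877), 0.57 for Slamf8 (SE 0.33, adjusted p = 0.593) and 0.33 for Cd72 (SE 0.30, adjusted p = 0.795; n = 3 per group in limma). For all 3 genes, replicate 2 had a lower signal with luteolin + LPS than with luteolin, and replicates 1 and 3 a higher one. The direction for Slamf7 and Cd72 rested on 1 array each: without luteolin + LPS replicate 1 Slamf7 was at -0.23, and without luteolin + LPS replicate 3 Cd72 was at -0.06. Slamf9 was at -0.46 (SE 0.29, adjusted p = 0.643), Ly9 at 0.23 (SE 0.19, adjusted p = 0.758) and Cd48 at 0.07. Of the genes tested 0.804% were called higher and 1% lower, and with the replicate block 2.85% were called lower, Cd84 among them.

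Expressed as a share of the log2 difference of LPS over control, the difference of luteolin + LPS over luteolin was 15.5% on average for Slamf7, with 29.2%, -4.63% and 12.2% in replicates 1, 2 and 3. For Cd72 it was 17.5%, with 13.9%, -16.8% and 53.5%. A negative share means a lower signal with luteolin + LPS than with luteolin, and for Slamf7 in replicate 2 both of these signals, 31.8 and 34.5, were under 50. The shares are ratios of single arrays that include the arrays of the choosing contrast, and they are given as a description. No share is given for Slamf8, whose signals were under 50 on all arrays but those with LPS alone.

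The contrast on which the members were chosen, luteolin + LPS minus LPS, had log2 differences of -2.89 for Slamf7 (SD 0.18 over 3 replicates), -1.83 for Slamf8 (SD 0.84), -1.67 for Cd72 (SD 0.55) and -1.10 for Slamf9 (SD 0.69). Cd84 was at -0.46 (SD 0.49), Ly9 at -0.12 (SD 0.31) and Cd48 at -0.03 (SD 0.28). For Slamf7 the difference was -2.76, -3.09 and -2.80 in replicates 1, 2 and 3, close to each other although its signals differed several-fold between the replicates. Leaving out 1 array kept its partner of the same replicate number in, so the rest was no longer paired. This moved the difference to between -3.65, without luteolin + LPS replicate 1, and -2.18, without LPS replicate 1. For Cd72 it was -2.14, -1.80 and -1.07, for Slamf8 -1.90, -2.64 and -0.96 and for Slamf9 -1.42, -1.57 and -0.31, with replicate 3 closest to 0 each time. With signals under 50 set to 50, Slamf7 was at -2.67 and Slamf8 at -0.58. In 4 of the 7 members the luteolin + LPS arrays were all below the LPS arrays, as they were in 8.04% of the genes tested, and since this contrast chose the members nothing is read from that count. The median over the 7 members was -1.10, against 0.016 over all genes tested.

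**Figure D3:**
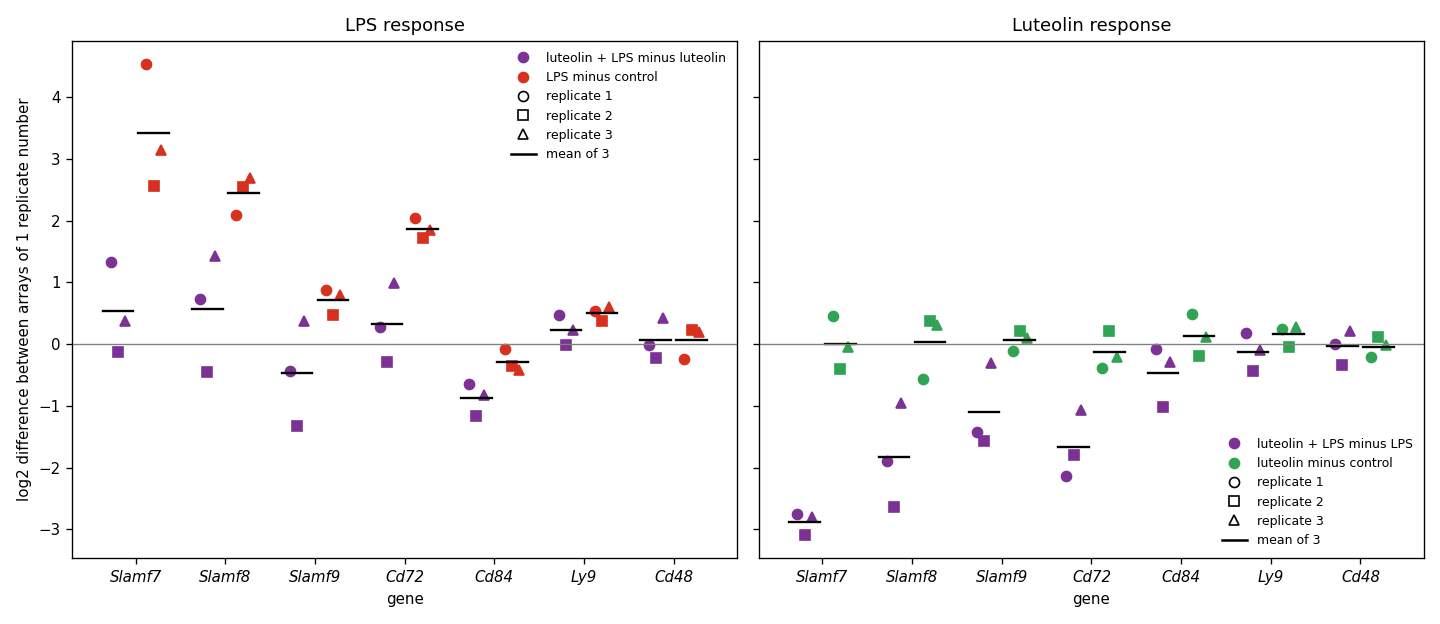
Log2 differences of the 7 members between arrays of the same replicate number, with a bar at the mean of 3: on the left the response to LPS with luteolin and without it, on the right the response to luteolin with LPS and without it. For Slamf7 the bars on the left are at 0.53 and 3.42, and those on the right at -2.89 and 0.00.

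The spread between replicates was set beside the interferon response, which LPS induces through Toll-like receptor 4. For 17 measured genes of an interferon list of 20, among them Ifit1, Irf7 and Cxcl10, the median log2 difference from the control mean was 3.50, -0.28 and 1.19 in replicates 1, 2 and 3 with luteolin + LPS, and 4.93, 2.42 and 2.95 with LPS. Slamf7 on the same scale was at 2.06, -0.57 and 0.11 with luteolin + LPS and at 4.82, 2.52 and 2.91 with LPS. Replicate 1 was thus the highest and replicate 2 the lowest in both conditions, for the list as for Slamf7. In the arrays without LPS, replicate 1 of Slamf7 was at 0.73 with luteolin and 0.28 in the control. The list was at -0.01 and 0.04 there. Slamf8, Slamf9 and Cd72 had another order with luteolin + LPS, in which replicate 3 was the highest, at 1.42 for Slamf8, 0.44 for Slamf9 and 0.97 for Cd72. The part of the replicate differences in these results was not tested beyond the fits with the replicate number as a block.

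**Figure D4:**
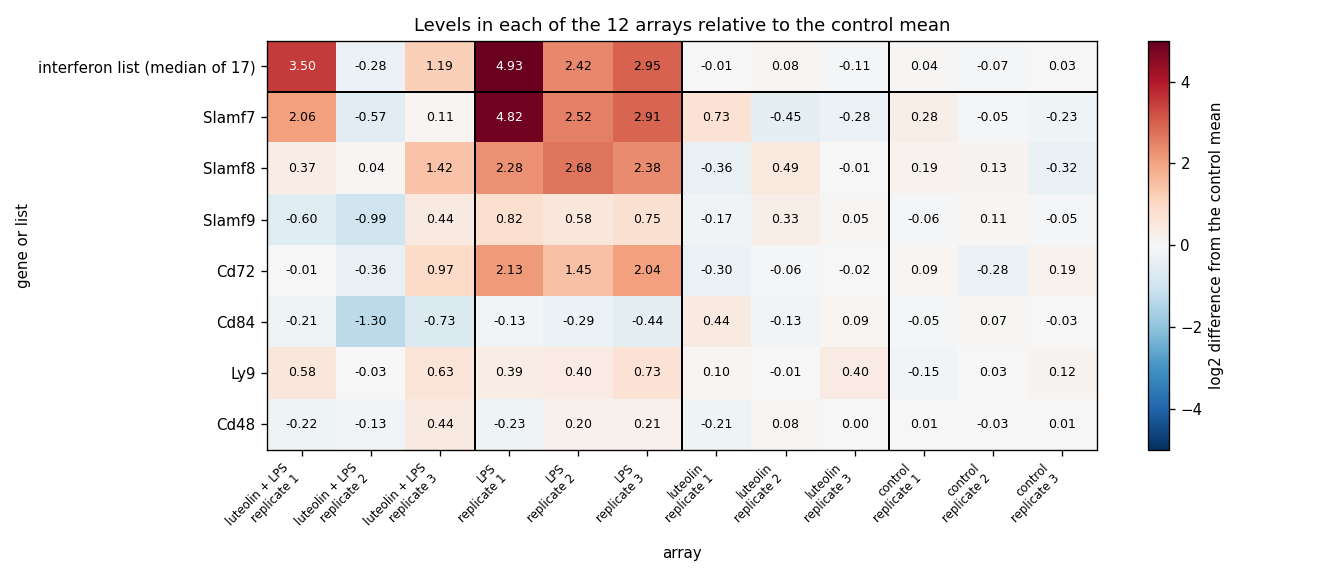
Log2 difference from the control mean for the interferon list (median of 17 genes) and the 7 members in each of the 12 arrays, red for higher and blue for lower. In the luteolin + LPS arrays, Slamf7 and the interferon list are highest in replicate 1 (2.06 and 3.50), while Cd72 is highest in replicate 3 (0.97).

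Across the 12 arrays, the log2 values of Slamf8 and Cd72 had a Pearson r of 0.933, those of Slamf7 and Cd72 an r of 0.827 and those of Slamf9 and Cd72 an r of 0.797. Slamf8 had an r of 0.771 with Slamf7 and of 0.747 with Slamf9, but its signals were under 50 on all arrays but those with LPS alone. Ly9 had an r of 0.658 with Cd72 and of 0.559 with Slamf7, and Slamf7 and Slamf9 had an r of 0.548. Cd84 and Cd72 had an r of -0.151. The tested genes outside the set with the pattern most like that of Slamf7 were Trpm4 (r = 0.975), a cation channel, Oas1c (0.961), of the oligoadenylate synthetase family, Mlkl (0.96), the effector of necroptosis, Cd5 (0.958), a scavenger receptor family protein of lymphocytes, and Cfb (0.953), a complement factor. Those most like Cd72 were Gstm6 (0.965), a glutathione transferase, Nos2 (0.951), the inducible nitric oxide synthase, Tent5c (0.943), a poly(A) polymerase, Acp5 (0.939), a phosphatase of osteoclasts and macrophages, and Niban1 (0.938). These are descriptions over arrays that share conditions and replicate numbers, and the contrast that chose the members is part of them. Gstm6 reached a mean signal of 50 only with LPS (70, against 31 to 32.7 in the other conditions).

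The SLAM receptor genes lie close together on mouse chromosome 1, whereas Cd72 is on chromosome 4. In RefSeq order from Cd244a to Slamf8 there were 28 genes listed as protein coding, 9 of them SLAM receptors and 19 others. Of the 19 others, 10 were tested, and 0 were called in LPS versus control by limma, with log2 differences of -0.12 to 0.79. Over all genes tested 1.96% were called higher and 2.22% lower, so a count of 0 among 10 genes cannot be told from these shares. Tagln2, an actin-binding protein whose gene lies between Slamf9 and Slamf8, had 0.79 (adjusted p = 0.0954). The differences of luteolin + LPS minus LPS over these 10 genes were -0.39 to 0.18, against -2.89, -1.83 and -1.10 for Slamf7, Slamf8 and Slamf9, which were chosen on this contrast, so nothing is read from that gap. In LPS versus control, Slamf9 at 0.72 lay within the range of these 10 genes, and Slamf7 and Slamf8 lay above it. The other SLAM receptors, Slamf1, Slamf6 and Cd244a, had mean signals under 50 in all 4 conditions and were not tested.

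**Figure D5:**
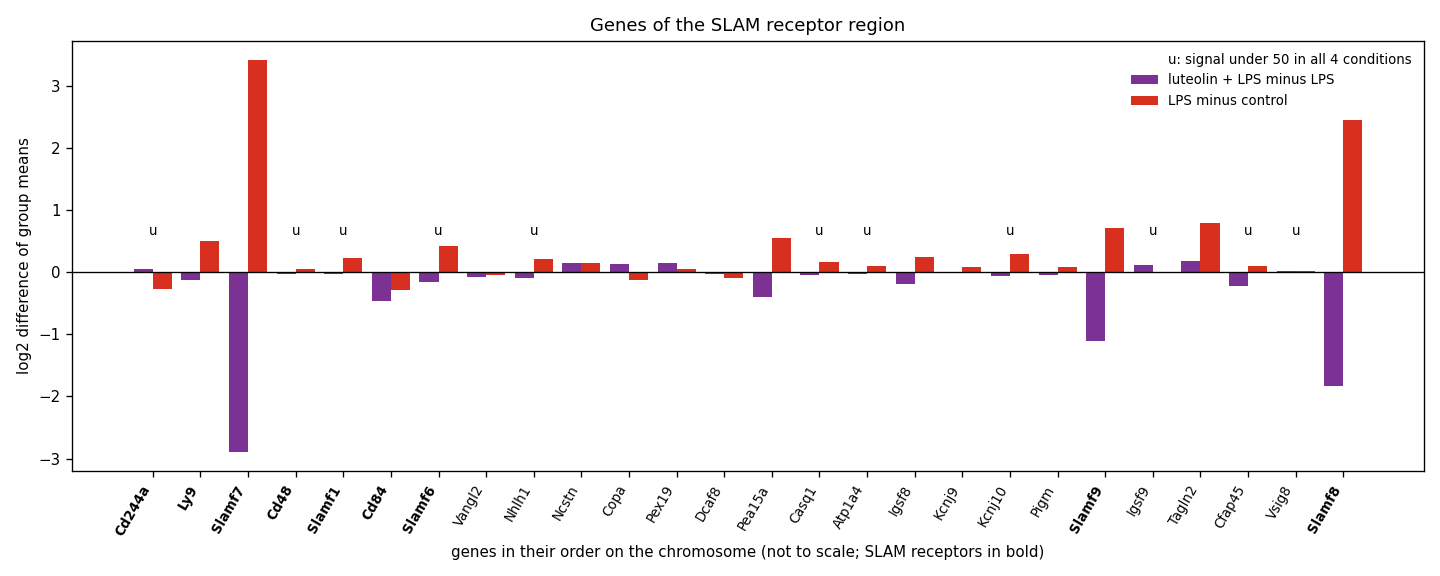
Log2 differences of group means for genes in their order along the SLAM receptor region, with luteolin + LPS minus LPS left of LPS minus control for each gene and SLAM receptors in bold; u marks genes under a signal of 50 in all 4 conditions. Slamf7 has bars at -2.89 and 3.42 and Slamf8 at -1.83 and 2.45; for LPS minus control, Slamf9 (0.72) and its neighbour Tagln2 (0.79) have bars of about the same height.

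Downstream of these receptors, 13 of 17 listed adaptors, kinases and phosphatases had a probe set naming 1 gene and 12 were tested. With LPS 3 fell and 0 rose against the control, where 2.22% of the genes tested fell. The median log2 difference over the 13 genes was -0.15. Csk, the kinase that restrains Src family kinases, had signals of 283.6, 422.1 and 364.0 with LPS, against 733.5, 687.6 and 758.1 in the control, and fell by 1.04 on the log2 scale (SE 0.14, adjusted p = 0.00251, n = 3 per group in limma). Btk, a Tec family kinase, had signals of 838.3, 642.4 and 580.2 with LPS, against 1166, 1031 and 1080 in the control (log2 fold change -0.68, SE 0.17, adjusted p = 0.0449). Plcg2, a phospholipase downstream of Syk and Btk, had 2812, 2843 and 2161 with LPS, against 4887, 3866 and 3538 in the control (log2 fold change -0.65, SE 0.15, adjusted p = 0.0417). The LPS arrays of each gene were all below its control arrays. Leaving out 1 array at a time kept the call of Csk in 12 of 12 fits, but those of Btk and Plcg2 in only 3 of 12 each, with adjusted p of 0.0217 to 0.145 and 0.0424 to 0.135.

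Inpp5d, the SHIP1 phosphatase that SLAM receptors recruit, was at a log2 fold change of -1.05 with LPS (SE 0.27, adjusted p = 0.052, and 0.00505 with the replicate block). Sh2d1a, which encodes the adaptor SAP, had signals too low to be tested. With luteolin + LPS against luteolin 0 genes of this list were called. With the replicate block Syk, the kinase of ITAM receptors, was called higher in this comparison (log2 fold change 1.10, adjusted p = 0.083 in limma without the block and 0.0245 with it). Its signals were 2167, 1025 and 2505 with luteolin + LPS, against 1015, 728.2 and 764.7 with luteolin. Btk and Inpp5d were called lower with the block (adjusted p = 0.0153 and 0.00661), where 2.85% of the genes tested were called lower. In fits without a block that left out 1 array, Syk was called in 1 of 12, Btk in 0 and Inpp5d in 2.

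Of 15 listed inhibitory receptors, most of them with ITIM motifs as in Cd72, 12 were tested. With LPS 1 fell and 0 rose, where 2.22% of all genes tested fell and 1.96% rose. Cd300a, which binds phosphatidylserine on dying cells, had signals of 1198, 1518 and 1225 with LPS, against 2357, 2776 and 2955 in the control, and fell by 1.04 on the log2 scale (SE 0.20, adjusted p = 0.0169, n = 3 per group in limma). This call held in 9 of 12 fits that left out 1 array, with adjusted p up to 0.0732. With the replicate block, where 4.3% of all genes tested rose, 2 members of this list rose, Pilra and Siglece (adjusted p = 0.0321 and 0.0317, against 0.0939 and 0.074 without it). Their log2 fold changes were 2.46 and 0.37, and Pilra had a mean signal of 627.7 with LPS against 114.3 in the control. In luteolin + LPS minus LPS, given without a test, 7 of 13 genes of this list were below 0. These differences ran from -1.80 for Pilra, whose arrays overlapped, to 0.68 for Cd300a. Of the ligands and partners of Cd48 and Cd72, 3 of 4 were tested and 0 were called with LPS, among them Sema4d, the Cd72 ligand (log2 fold change 0.70, adjusted p = 0.197), while Cd2 was under 50. In luteolin versus control, 0 genes of these lists were called, with or without the replicate block.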

How the data were processed

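Total RNA of BV-2 microglia was hybridised to 12 arrays, 3 per condition. The authors summarized the scans with RMA in Expression Console and deposited linear intensities, 1 per probe set. RMA sets all arrays to a common distribution, so a shift shared by most genes is removed. The number of arrays limits the precision. Of 45101 probe sets, 34958 could be assigned to 1 gene, 932 to several and 9211 had no name here. Each gene was represented by its probe set of highest mean log2 intensity. Genes under a mean signal of 50 in all conditions (6123) were left out. Log2 intensities of the 12 arrays entered a single limma 3.58.1 model in R 4.3.3 with a mean for each of the 4 conditions, and genes were called at a Benjamini-Hochberg adjusted p under 0.05 among the 12071 tested. The script was tested on simulated data.

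The methods describe 3 independent stimulation experiments. Deviations from the group means correlated positively in all 18 pairs of arrays with the same replicate number (r of 0.101 to 0.591, median 0.421). Over 36 pairs of different numbers r was -0.563 to 0.483, with a median of -0.295. As deviations within a group of 3 cancel out, that negative median follows from the positive one and adds nothing to it. The numbers were taken to pair the arrays. The fit without a block is the one given, although it leaves this pairing out of the error. For the members and the lists of adaptors, ligands and inhibitory receptors, the blocked value stands where it changes a call, and for Slamf7 in LPS versus control. The cell type markers and the other genes of the SLAM region are given without the block only.

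The members, the gene lists and the tests were chosen with earlier results of these data known. Named were all members, up to 4 called genes per list and comparison, the genes of the SLAM region and the 5 genes most like Slamf7 and Cd72; other genes were named after their values were seen. Alternatives were a fixed or random replicate block, array weights, other signal minimums, a pseudocount of 16, other probe set rules, only the groups compared, leaving out each array, and, added after seeing the data, signals under 50 set to 50. The labels' extraction text names PUER cells and the methods give the joint treatment as LPS + LPS; the arrays were taken as BV-2 and luteolin + LPS, as the labels' treatment text gives them. Sequences and gene order are from RefSeq (GRCm38.p6).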

Additional observations from a re-analysis of the deposited data

How the results depend on the processing

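The number of members called in LPS versus control was 3 and lay between 2 and 4 in the alternatives, and no member was called in luteolin versus control in any. In luteolin + LPS versus luteolin, 0 members were called, but 1 (Cd84) with the replicate block, 1 with a random replicate block (consensus correlation 0.263) and 1 with array weights, and 0 to 1 when 1 array was left out. Over all genes tested, limma called 505 in LPS versus control (1338 with the replicate block, 1259 with the random block, 1950 with array weights, 306 with only the groups compared, 197 to 660 without 1 array), 218 in luteolin + LPS versus luteolin (554, 480, 592 and 101 in the same order, and down to 69 without 1 array) and 0 in luteolin versus control (34, 23 and 962 with the blocks and weights, and 1 without luteolin + LPS replicate 2). Of the values of single members in the tested comparisons, 368 kept their side of the threshold and their direction, 7 newly passed, 5, all of Slamf7 in LPS versus control, no longer passed, and 10, none of them called, turned in sign; the cause was not tested. Those that turned were in luteolin versus control Slamf7 (-0.10 with array weights, -0.36 to 0.23 without 1 array), Slamf8 (-0.19 to 0.24), Slamf9 (-0.060 to 0.19) and Cd84 (-0.022 to 0.26), and in luteolin + LPS versus luteolin Slamf7 (-0.23 to 1.08) and Cd72 (-0.056 to 0.605). The fixed replicate block changed the calls of Ly9 in LPS versus control and Cd84 in luteolin + LPS versus luteolin, the random block that of Cd84 alone, and neither changed another call of a member. Of the differences of luteolin + LPS minus LPS, 54 moved by less than 1 SD and 9 by more, 8 of Slamf7 (-3.65 to -2.18) and 1 of Slamf8 (-0.58 with signals under 50 set to 50). The SD of Slamf7, 0.18, is over differences within replicate numbers, and leaving out 1 array breaks that pairing. Signals under 50 limit Slamf8, Ly9, Cd48 and the lower arrays of Slamf7, whose log2 differences include background.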
